A study of Bos taurus with 11 samples.

Results

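The transcription factor genes that pattern the uterus or specify its cell types, HOXA9, HOXA10, HOXA11, HAND2, MSX1, MSX2, EMX2, PAX8, FOXA2 and SOX17, were followed in endometrial biopsies of cows, as a set of 10. Members were taken by gene name in the scanner files. The array carried 18 probes for 8 of the 10 genes, out of 43653 probes that were not controls. HOXA11 and HAND2 had no probe under their names, and no probe with an accession belonging to either gene was found, so neither is analysed here. The study compared 5 subfertile cows with 6 fertile cows, and each cow gave 1 biopsy at day 7 of the oestrous cycle. Subfertile cows had gone through 3 embryo transfers or artificial inseminations in a row without conceiving, cycled in an apparently normal way and showed nothing wrong in the reproductive tract. Fertile cows had needed no more than 3 such attempts to conceive and conceived again at the next embryo transfer after the biopsy. Neither breed nor age is given in the labels. The biopsies hold epithelium, stroma, vessels and other cells together, so that fewer cells of a type and less RNA per cell cannot be told apart in any value below.

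As background, HOX genes of the A cluster are laid down in order along the Müllerian duct, the embryonic tube from which oviduct, uterus and upper vagina form. In mice HOXA9 marks the future oviduct, HOXA10 the uterus and HOXA11 the uterus and cervix, and the uterine genes stay active in the adult, where Hoxa10 is required for implantation. HAND2 acts in the stroma under progesterone and restrains fibroblast growth factor signals to the epithelium. MSX1 and MSX2 are homeobox repressors of the uterine epithelium that in mice together hold down Wnt5a before implantation. EMX2 is a homeobox gene of the urogenital tract that HOXA10 represses in human endometrial cells. PAX8 marks epithelium derived from the Müllerian duct, FOXA2 is the forkhead factor of uterine glands, and SOX17 is found in uterine epithelium and in endothelium.

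RNA was hybridised in 1 colour to arrays of 60-base probes. Levels are given as log2 of the background-corrected signal minus the 75th percentile of the same array, so that 0 is the signal at that percentile. Levels of different probes are not comparable with each other, because probes bind with different strength. Probes of a gene are numbered from the brightest. The median signal of an array before scaling lay between 54.3 and 92.7 in subfertile cows, against 161 and 452 in fertile cows. Between 64.5% and 74.2% of probes were well above background in subfertile cows, and between 72.0% and 77.4% in fertile cows. Slide and scan day are known for 10 of the 11 arrays, and none of the 6 known slides or 4 known scan days held both groups. All subfertile arrays were scanned on 1 day, so only fertile arrays give a spread between days. Among fertile arrays of known slide, each slide had its own day. Slide or day and group therefore cannot be told apart beyond the spread between slides of a group or days of the fertile group. Adjusted p-values are from limma with Benjamini-Hochberg adjustment over 31877 tested probes, with 0.05 as the threshold, and they measure the spread between cows.

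The probes that carry the differences between groups are shown here in lower case as the files give them, 5′ to 3′, with their places on the bovine build Btau_3.1. The 2 HOXA9 probes lie on chromosome 4, the first at chr4:71612818-71612877 and the second 1127 bases away at chr4:71611691-71611750. They share no run of more than 6 bases. The first 30 bases of each are printed, with those of the MSX2 probe at chr20:6609002-6609061.

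HOXA9 probe 1: ttacctcaaggcctactgaccaaatcgttg
HOXA9 probe 2: ggatgaaaatgaagaaaatcaacaaggacc
MSX2 probe 1: ttaatctgccagatgcgccccccacccctt

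The FOXA2 probes lie at chr13:41723120-41723179, chr13:41723915-41723974 and chr13:41724359-41724418, in separate places along the gene. The capitals at the end of the first mark a TAA stop triplet.

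FOXA2 probe 1: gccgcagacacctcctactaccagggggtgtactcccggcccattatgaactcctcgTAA
FOXA2 probe 2: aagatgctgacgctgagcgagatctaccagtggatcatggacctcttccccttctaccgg
FOXA2 probe 3: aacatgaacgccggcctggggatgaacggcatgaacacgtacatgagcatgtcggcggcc

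The MSX1 probes, at chr6:108688878-108688937 and chr6:108688850-108688908, share a run of 29 bases, printed here in capitals, and therefore do not measure the transcript independently.

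MSX1 shared run: GGTGGCTCTCAAGATTCCCTTTGGAAGGG

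All 18 probes entered the test, and 16 of them were well above background on all 11 arrays. HOXA9 fell in subfertile cows by both of its probes, while MSX2 and 1 of 3 FOXA2 probes rose. The remaining probes did not pass. The 4 probes that passed are 22.2% of 18, and 22.2% of all tested probes passed in either direction. By direction, 2 probes were higher, where 14.8% of all tested probes were called higher, and 2 were lower, where 7.4% were called lower. In 3 of the 18 probes the groups did not overlap, against a background of 13.5%. Of these, 1 was higher in subfertile cows, against 9.61% of all tested probes, and 2 were lower, against 3.92%. The probes of the 8 measured genes were thus called about as often as the array as a whole. The arrays of a slide or a scan day can be allowed to vary together by fitting slide or day as a random block. Fertile cow 6, whose slide and day are not known, was given a block of its own. With slide, 2 member probes were called higher and 1 lower, where 11.6% of all tested probes passed, 8.55% higher and 3.01% lower. With scan day, 0 member probes passed in either direction, where 3.01% of all tested probes passed, 2.42% higher and 0.593% lower. The normexp background correction subtracts the local background, fits a model to what is left and adds an offset of 50. That offset is near the median signal of subfertile arrays (54.3 to 92.7) and below that of fertile arrays (161 to 452). Under normexp, 5 member probes were called higher and 2 lower, where 53.7% of all tested probes passed, 46.9% higher and 6.78% lower. The part of the offset in these calls was not tested. The median difference was 0.07 over the 18 probes and 0.07 over all tested probes.

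**Figure D1:**
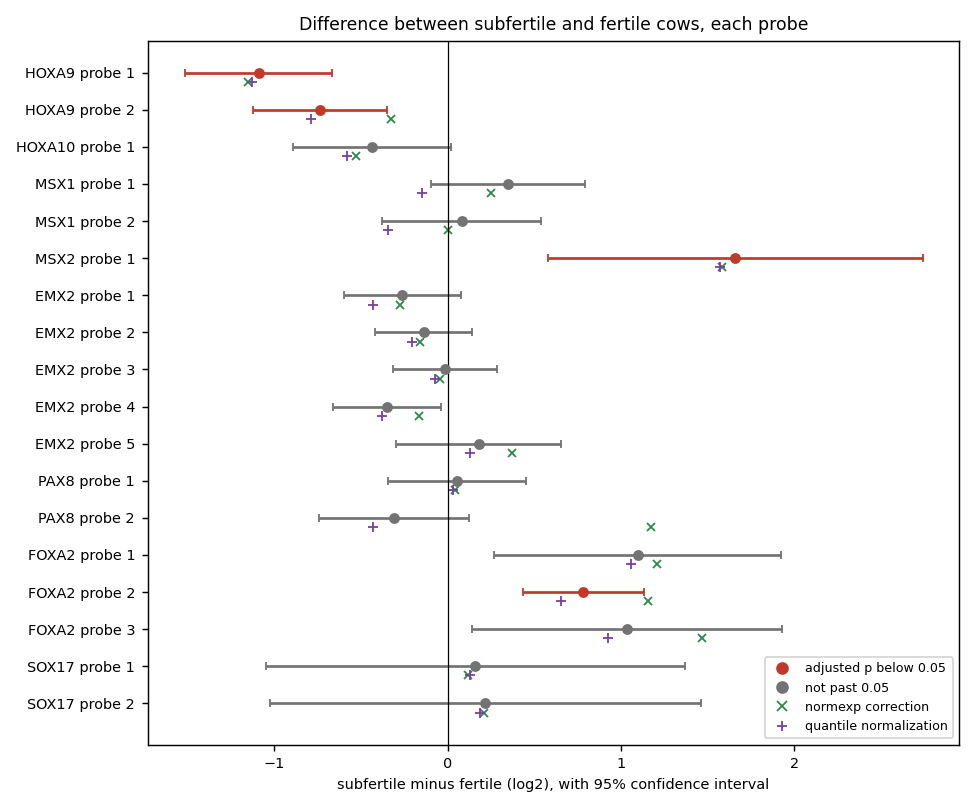
Difference in level (subfertile minus fertile, log2) of each of the 18 member probes, with its 95% confidence interval from limma. Red marks an adjusted p below 0.05, and crosses give the difference under the normexp and quantile settings. The intervals of both HOXA9 probes and of EMX2 probe 4 lie below 0, and those of MSX2 and of the FOXA2 probes lie above 0.

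HOXA9 was lower in subfertile cows. By probe 1 the subfertile cows had levels of 1.07, 0.65, 0.96, 1.10 and 0.49, against a lowest level of 1.55, a median of 1.76 and a highest of 2.50 in fertile cows. All 5 subfertile cows lay under every fertile cow. The means were 0.85 ± 0.27 in subfertile cows (SD, n = 5) and 1.94 ± 0.39 in fertile cows (SD, n = 6), a difference of -1.09 ± 0.19 (SE), or 2.13-fold lower, with an adjusted p of 0.00367 by limma. By probe 2 the subfertile cows had -2.00, -2.49, -2.49, -1.91 and -2.86, against -1.79, -1.69 and -1.32 as lowest, median and highest in fertile cows. Here too the groups did not overlap. The difference by probe 2 was -0.74 ± 0.18 (SE), 1.67-fold lower, with an adjusted p of 0.0138 by limma. Group means removed, the 2 probes varied together over the 11 cows with r = 0.84.

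Leaving out any 1 cow kept both HOXA9 probes past the threshold. When slides were fitted as a random block, the limma adjusted p of the first probe was 0.015, and it was 0.0526 with scan day as the block. The second probe had 0.0528 with the slide block and 0.154 with scan day. Under the normexp background correction, the difference of the second probe was -0.33 with a limma adjusted p of 0.0708, and without fertile cows 1 and 3 it was -0.61 with 0.0656. The first probe passed in both of these, at -1.15 with 8.48e-05 and at -0.85 with 0.00981.

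HOXA10, the neighbour of HOXA9 in the cluster and the uterine gene of the series, did not pass. Its only probe, at chr4:71604433-71604492, gave 2.67, 2.98, 3.38, 3.00 and 3.13 in subfertile cows, against 2.74, 3.43 and 3.92 as lowest, median and highest in fertile cows. The groups overlapped, since fertile cow 6 at 2.74 lay under 4 of the 5 subfertile cows. The difference was -0.44, with a 95% interval of -0.89 to 0.02 and a limma adjusted p of 0.152. With fertile cow 6 left out it was -0.58, with an adjusted p of 0.0305, and with the normexp background correction it was -0.53, with 0.0424.

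EMX2 was measured by 5 probes on chromosome 26, between chr26:38245239 and chr26:38246540, and none passed. By the brightest probe, the subfertile cows had 3.37, 3.72, 3.52, 3.25 and 3.49, against 3.26, 3.68 and 4.09 as lowest, median and highest in fertile cows. These groups overlapped widely, and the difference of -0.26 had a 95% interval of -0.60 to 0.08. The differences of the other 4 probes were -0.14, -0.02, -0.35 and 0.18. Probes 2 and 3 share 40 bases and rest on 5 fertile cows, because the spot of fertile cow 1 was marked as an outlier for each. Probe 4, with -0.35 and a limma adjusted p of 0.0989, came nearest to the threshold. It passed with median scaling, at -0.44 with 0.0334, and without fertile cow 6, at -0.42 with 0.0493.

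MSX2 was higher in subfertile cows on average, but the fertile cows were split. Its only probe gave 3.67, 2.72, 3.43, 2.35 and 2.73 in subfertile cows, against 0.34, 2.76, 0.35, 0.90, 2.74 and 0.84 in fertile cows 1 to 6. Fertile cows 2 and 5 lay among the subfertile cows, and the other fertile cows lay below all of them. The means were 2.98 ± 0.55 in subfertile cows (SD, n = 5) and 1.32 ± 1.13 in fertile cows (SD, n = 6), a difference of 1.66 ± 0.49 (SE), or 3.16-fold, with an adjusted p of 0.0335 by limma. Cows 2 and 5 shared a slide and cows 1 and 3 shared another, and the mean level was 2.75 on the slide of cows 2 and 5 and 0.34 on that of cows 1 and 3. Of all tested probes, 0.257% had a gap of that size or more between these slides. The part of the slide in the level of MSX2 was not tested.

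When 1 cow was left out, the MSX2 difference ran from 1.46 to 1.95, and it passed in 3 of the 11 fits, with limma adjusted p-values from 0.0134 to 0.0731. Without fertile cows 1 and 3 the difference was 1.17, with 0.137, and without fertile cows 2 and 5 it was 2.37, with 8e-04. With slide as a random block it was 1.77, with 0.0414, and with scan day it was 1.70, with 0.154.

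MSX1, the partner of MSX2, did not pass. By probe 1 the subfertile cows had 6.42, 6.30, 5.62, 6.37 and 6.01, against 5.47, 5.63 and 6.28 as lowest, median and highest in fertile cows. The difference was 0.35, with a 95% interval of -0.10 to 0.79, and by probe 2 it was 0.08, with an interval of -0.38 to 0.54. Both turned negative under quantile normalization, to -0.15 and -0.34, so no direction is given for MSX1.

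FOXA2, the gland factor, had a positive difference by all 3 probes, and 1 of the 3 passed. By probe 2 the subfertile cows had -3.47, -3.75, -4.39, -4.18 and -3.93, against -4.88, -4.77 and -4.43 as lowest, median and highest in fertile cows. The groups did not overlap, although subfertile cow 3 at -4.39 lay close to fertile cow 6 at -4.43. The means were -3.94 ± 0.36 in subfertile cows (SD, n = 5) and -4.73 ± 0.16 in fertile cows (SD, n = 6), a difference of 0.78 ± 0.16 (SE), or 1.72-fold, with an adjusted p of 0.00682 by limma. The probe was dim, with a median signal before scaling of 37.9 in subfertile and 109 in fertile cows, though well above background in every cow. Its difference was 0.65 under quantile normalization, with a limma adjusted p of 0.0196. Under the normexp background correction it was 1.16, with 5.36e-06. The offset of 50 in that correction exceeds the probe's median signal in subfertile cows, and 46.9% of all tested probes were called higher under it. The normexp value is therefore not read as support for the call.

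By probe 1 of FOXA2 the subfertile cows had -0.98, -1.27, -2.32, -2.08 and -1.60, against -3.47, -2.96 and -1.42 as lowest, median and highest in fertile cows. Fertile cow 6 was the highest fertile cow by each of the 3 probes. The difference by probe 1 was 1.10, with a 95% interval of 0.27 to 1.92 and a limma adjusted p of 0.0575, and by probe 3 it was 1.04, with an interval of 0.14 to 1.93 and 0.0901. Probe 3 was well above background in 4 of 5 subfertile cows and 4 of 6 fertile cows. Without fertile cow 6 probe 1 had a limma adjusted p of 0.012 and probe 3 of 0.038. The probe that passed kept its call when any 1 cow was left out and with slide as a random block, with a limma adjusted p of 0.0258, and had 0.11 with scan day as the block.

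**Figure D2:**
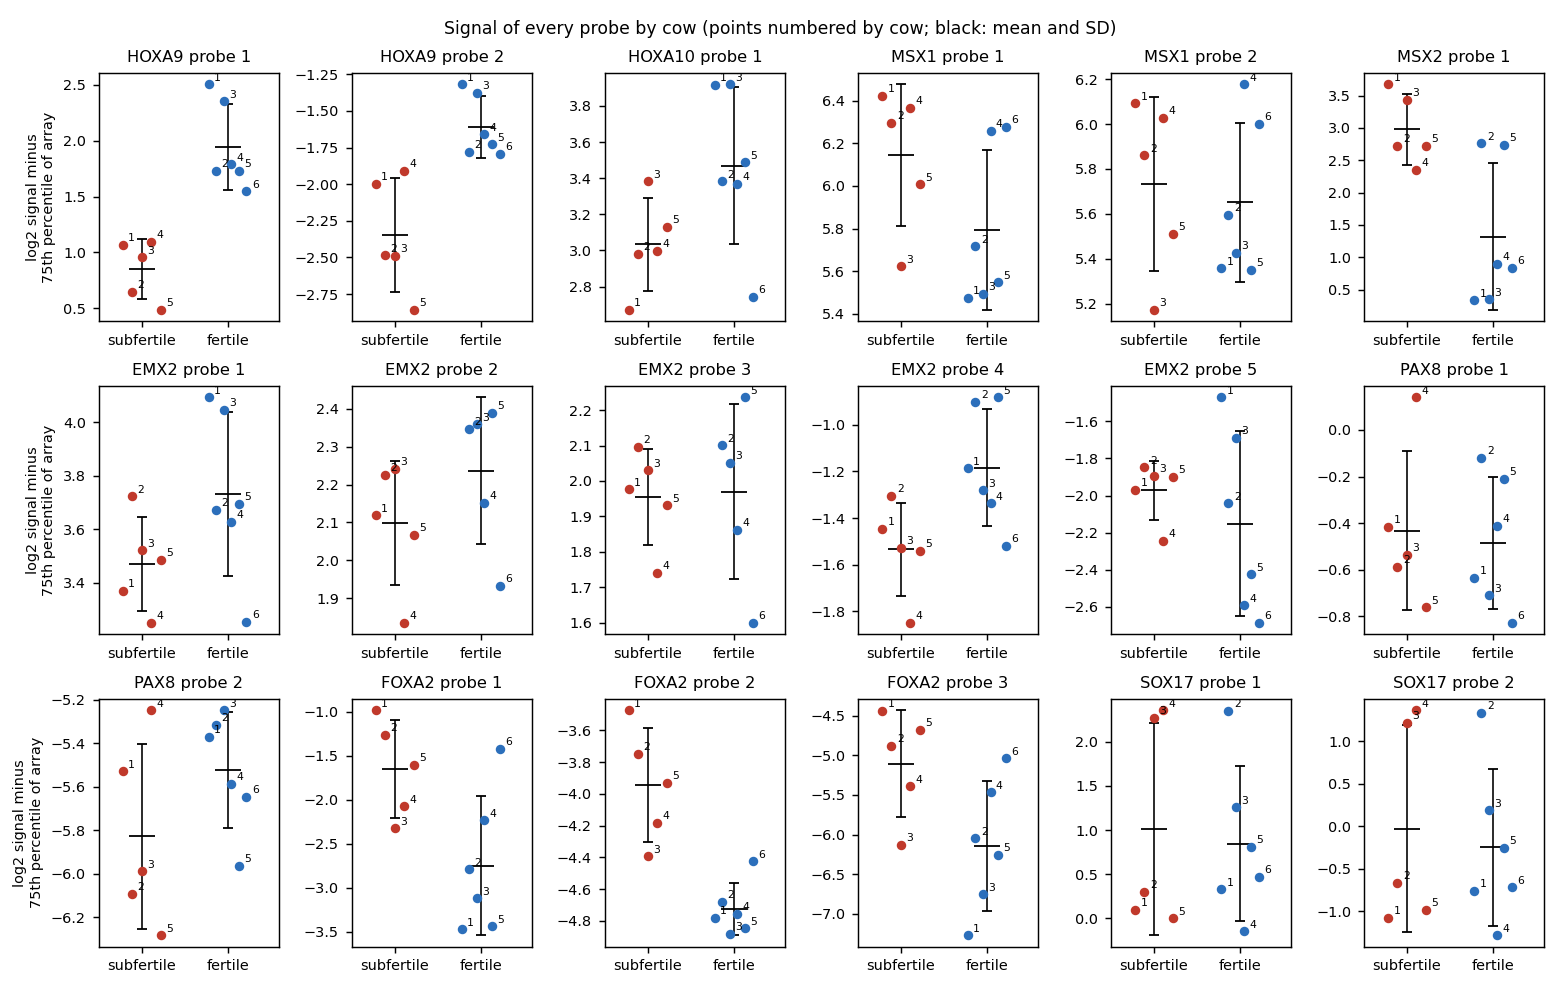
Level (log2 signal minus the 75th percentile of the array) of each of the 18 probes in every cow, subfertile cows (n = 5) on the left and fertile cows (n = 6) on the right, with the mean and SD in black and points numbered by cow. The HOXA9 groups do not overlap, MSX2 shows 2 fertile cows among the subfertile ones, and SOX17 is spread widely in both groups.

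SOX17 did not pass, and its levels were spread more widely within the groups than those of most probes on the array. By probe 1 the subfertile cows had 0.10, 0.30, 2.27, 2.36 and 0.00, against 0.33, 2.35, 1.26, -0.15, 0.81 and 0.47 in fertile cows 1 to 6. Subfertile cows 3 and 4 and fertile cow 2 were high, and they lay on different slides, each beside a cow of lower level. The difference was 0.16, with a 95% interval of -1.05 to 1.37, so that a 2-fold difference in either direction lies inside the interval. Within groups the SD was larger than in 97.8% of all tested probes by probe 1 and 98.0% by probe 2. From lowest to highest, the cows spanned 5.12-fold in the subfertile group and 5.65-fold in the fertile group by probe 1. The 2 probes ranked the cows almost alike, with r = 0.998 after group means were removed.

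PAX8 did not pass. By probe 1, at chr11:48622308-48622367, the subfertile cows had -0.42, -0.59, -0.54, 0.14 and -0.76, against -0.83, -0.52 and -0.12 as lowest, median and highest in fertile cows. Subfertile cow 4 stood highest, and the other subfertile cows lay within the fertile range. The difference was 0.05, with a 95% interval of -0.34 to 0.45. Probe 2 was well above background in only 2 of 5 subfertile cows, against 6 of 6 fertile cows, and its difference of -0.31 turned to 1.17 under the normexp background correction, so that no direction is given for it.

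**Figure D3:**
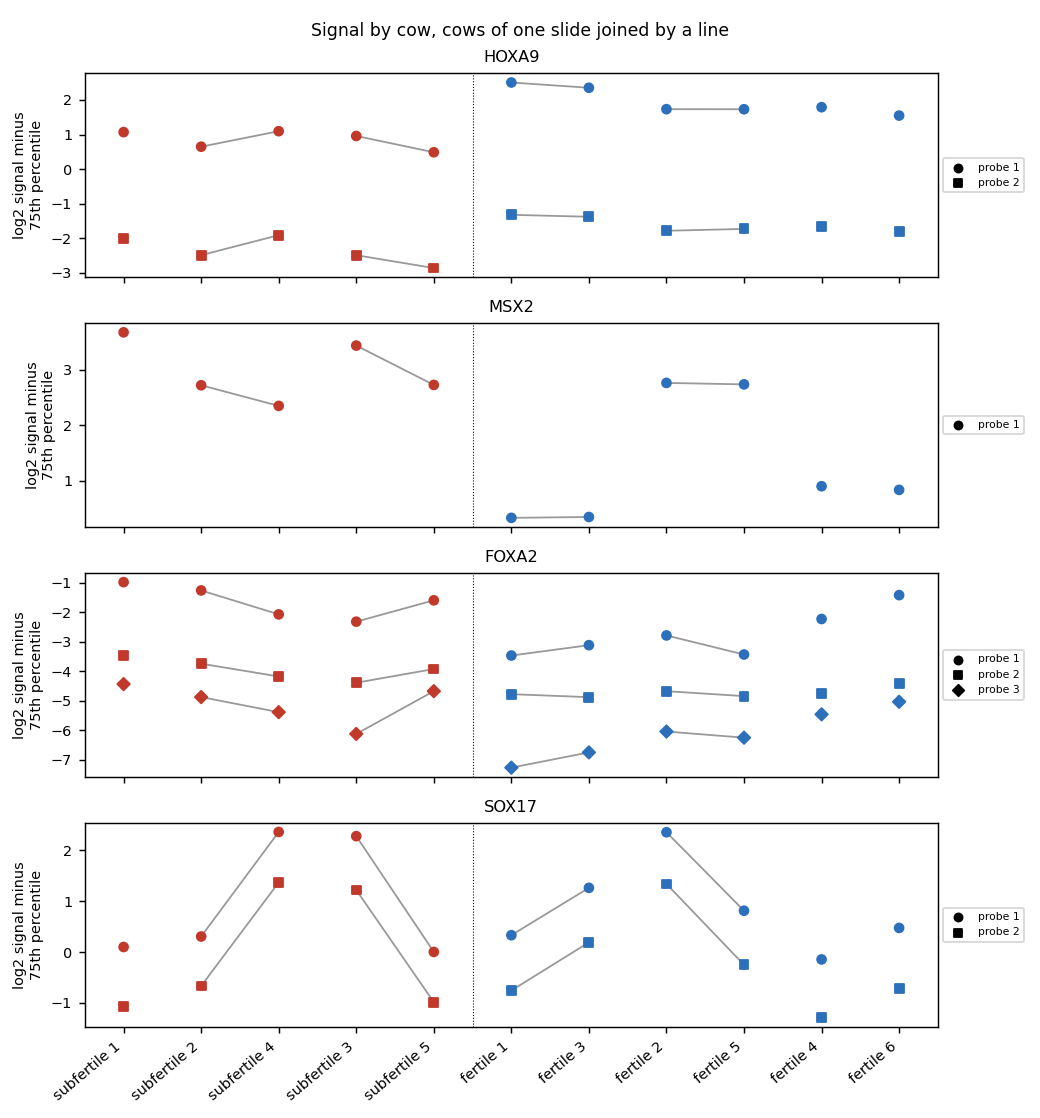
Levels (log2 signal minus the 75th percentile of the array) of MSX2, HOXA9, FOXA2 and SOX17, all probes of each, with cows of 1 slide joined by a line and subfertile cows on the left. MSX2 is high on the slide of fertile cows 2 and 5 (mean 2.75) and low on that of cows 1 and 3 (mean 0.34), whereas in HOXA9 every fertile cow lies above every subfertile cow by either probe.

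Beyond the difference between groups, some members moved together from cow to cow and others against each other. With group means removed, over 11 cows and by the brightest probe of each gene, HOXA10 and EMX2 had r = 0.84, HOXA10 and HOXA9 had 0.60 and HOXA9 and EMX2 had 0.54. MSX1 and FOXA2 also moved together, with r = 0.84. Against MSX1, r was -0.83 for HOXA10, -0.65 for EMX2 and -0.38 for HOXA9, and against FOXA2 it was -0.86, -0.58 and -0.53 in the same order. PAX8 and SOX17 had r = 0.57, and MSX2 and PAX8 had 0.44. Over all 28 pairs the median was -0.12, and 11 pairs were above 0. Another probe of a gene did not always follow its brightest one. EMX2 probe 1 had r = 0.88 with probe 5 but 0.44 with probe 4, and PAX8 probes 1 and 2 had 0.47. MSX1 probes 1 and 2, which overlap, had 0.98, and FOXA2 probe 1 had 0.80 with probe 2 and 0.90 with probe 3. All these values share the 11 arrays, the scaling and the cell makeup of each biopsy, and they are given as a description.

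**Figure D4:**
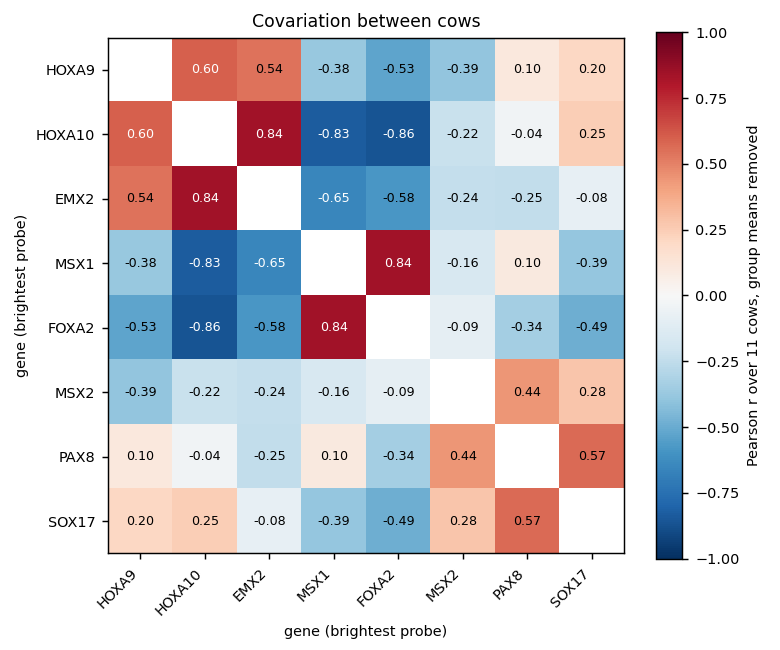
Pearson r between the 8 measured genes over 11 cows, brightest probe of each, with each group's mean removed. HOXA9, HOXA10 and EMX2 form a block of positive values, MSX1 and FOXA2 another (0.84), and all values between these blocks are negative, from -0.38 for HOXA9 and MSX1 to -0.86 for HOXA10 and FOXA2.

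The genes whose levels varied most like each member were taken from 12329 genes. For HOXA9 these were STARD3NL (r = 0.93) and TMEM68 (0.93), and for HOXA10 they were GPX8 (0.97) and UBE2L6 (0.96). For EMX2 they were MYH10 (0.94) and CBX1 (0.92), and HOXA10 ranked 46 in that order. MSX1 was followed by P4HB (0.98) and ZNF219 (0.98), and FOXA2 by NAMPT (0.97) and SMPD2 (0.96). MSX2 was followed most closely by CAMK1G and WIPI2, both with r above 0.99. PAX8 was followed by EPHA1 (0.91) and FUCA2 (0.91), and SOX17 by YKT6 (0.95) and RNF43 (0.93).

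Markers of the cell types in a biopsy moved beside these genes. Of 18 tested epithelial markers, 10 were higher in subfertile cows and 0 lower, and the mean level over the list ran from 1.77 to 2.04 in subfertile cows and from 1.05 to 1.64 in fertile cows, without overlap. That count was 3 with median scaling, 4 with quantile normalization, 3 with the slide block, 1 with scan day and 3 to 9 when 1 cow was left out. CLDN3, a tight junction protein, was higher by 1.08 with an adjusted p of 0.00253 by limma. Of 13 tested stromal markers, 2 were higher and 2 lower, and the list mean ran from 2.52 to 2.89 in subfertile cows and from 2.82 to 3.11 in fertile cows. FBN1, the microfibril protein fibrillin, differed by -0.98 with an adjusted p of 0.00633, and by -0.56 under normexp. FN1, fibronectin, differed by -0.80 with 0.00827. The stromal markers called higher, COL3A1 and DCN, had differences of 0.53 each, which turned to -0.24 and -0.33 under quantile normalization. Of all genes, 14.6% were called higher and 7.7% lower. HOXA10 ran against CLDN3 from cow to cow, with r = -0.95 after group means were removed. The part of epithelial and stromal content in the levels of HOXA9, MSX2 and FOXA2 was not tested.

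Ciliated cell markers were higher in 4 of 11 and lower in 0, with FOXJ1, the regulator of motile cilia, up by 1.90 and an adjusted p of 0.00273 by limma, and DNAH9, a ciliary dynein, up by 1.71 with 0.0214. Their list mean ran from -2.53 to -0.46 in subfertile cows and from -2.95 to -1.86 in fertile cows. Endothelial markers, which bear on SOX17, were higher in 3 of 12 and lower in 0, and their list means overlapped. Those with the smallest p were PLVAP (0.79, limma adjusted p 0.00958) and TIE1 (0.90, 0.0151). Smooth muscle markers were higher in 2 of 10, SMTN (0.89, 0.0138) and LMOD1 (0.73, 0.0446), and lower in 0. No tested marker was at background on every array, because only probes well above background on enough arrays were tested. Whether markers with a probe that was not tested were at background is not reported here. The parts of these cell types in the members' levels were not tested.

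Lists of genes that work with the members are given next. Over all lists, the marker lists included, 38 calls were made, and 17 were made with the slide block and 2 with scan day, WNT5A and CLDN3. Among 20 tested HOX genes outside the set, 1 was higher and 1 lower, with a median difference of 0.00, against 0.06 over all genes. HOXB7 was higher by 0.73 and HOXC6 differed by -0.56, with limma adjusted p-values of 0.0184 and 0.0302. Under the normexp correction the difference of HOXC6 turned positive, to 0.05, with a limma adjusted p of 0.792. HOXB7 was well above background in 3 of 5 subfertile cows and 5 of 6 fertile cows, and its difference was 1.35 under that correction. The remaining 18 did not pass. Of 8 tested TALE homeodomain cofactors, the proteins that bind DNA beside HOX proteins, 0 passed. MEIS1, one of them, differed by -0.23 with an adjusted p of 0.241 by limma, and PBX4, another, by 0.32 with 0.302, which became 0.90 and past the threshold under normexp. Of 6 tested genes tied to HOXA10 or HOXA11 in the uterus, 1 was lower, PTGER4, a prostaglandin E2 receptor, at -1.08 with an adjusted p of 0.0408 by limma. The integrin subunit gene ITGAV of the same list differed by -0.33 with 0.215.

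Of 13 tested WNT pathway genes tied to the MSX factors, 2 were higher and 2 lower. The median difference of the list was -0.33, against 0.06 over all genes, so most of the list lay below 0. The 2 genes named here, those of smallest p, were the higher ones. WNT5A, which the MSX proteins repress in the mouse uterus, was higher by 1.97 in subfertile cows with an adjusted p of 0.00627 by limma. In subfertile cows WNT5A had 1.71, 1.24, 1.75, 1.19 and 1.33, against -1.34, 0.72, -1.45, -0.77, 0.61 and -0.93 in fertile cows 1 to 6. Fertile cows 2 and 5, which shared a slide, were again the highest of their group. WNT5A followed MSX2 from cow to cow with r = 0.98 after group means were removed. The part of the slide in this likeness was not tested. AXIN2, a feedback target of WNT signalling, was higher by 1.02 with 0.0038, but its r with MSX2 was -0.15.

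Of 7 tested genes of glands and of the FOXA2 pathway, 0 passed. CDH1, the epithelial cadherin, had a difference of 0.45 with a limma adjusted p of 0.0573, and SPP1, a secreted adhesion protein, had -1.48 with 0.0612. FOXA3, a relative of FOXA2 and one of 4 tested relatives of the members, of which 0 passed, differed by 0.82 with 0.174, and PAX5, a relative of PAX8, by 0.35 with 0.0657, which became 1.04 and past the threshold under normexp. From cow to cow FOXA3 followed FOXA2 with r = 0.89 and MSX1 with r = 0.93. Of 18 tested genes of the progesterone and Indian hedgehog axis, which acts between epithelium and stroma, 3 were higher and 1 lower. NR2F2, a nuclear receptor of the stroma, differed by -0.45 with a limma adjusted p of 0.02.

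Among 8 tested genes of Müllerian duct development, 2 were higher and 0 lower. RARG, a retinoic acid receptor, was higher by 0.97 with a limma adjusted p of 0.0157, and GATA3, a zinc finger factor, by 0.66 with 0.045, although GATA3 did not pass under quantile normalization. HAND2 itself was not measured, and of 10 tested fibroblast growth factor genes and receptors of its pathway, 1 was higher and 1 lower. FGF2 was higher by 0.59 with 0.00372 by its brightest probe, and by 0.36 under quantile normalization, although its probes passed in both directions, which 1.37% of genes with 2 or more tested probes did. FGF1 differed by -1.36 with 0.0078.

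**Figure D5:**
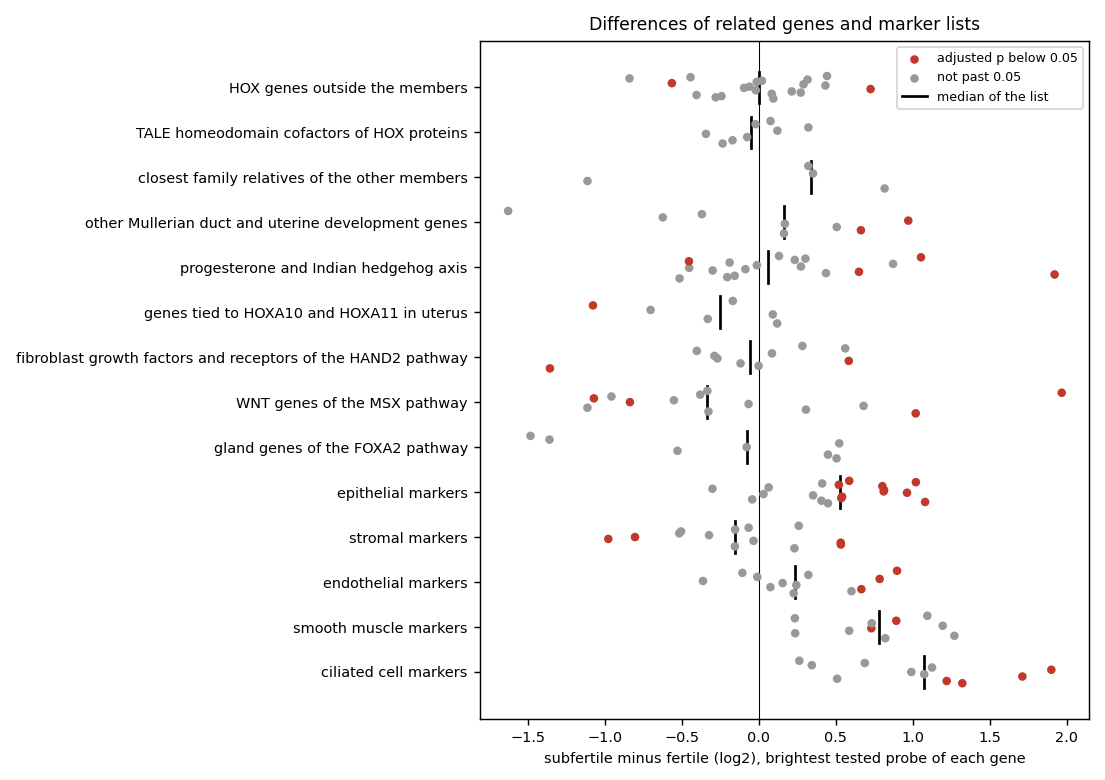
Difference in level (subfertile minus fertile, log2) of the brightest tested probe of each gene, by gene list, with genes past the threshold in red and a bar at the median of each list. Epithelial markers lie mostly above 0, with 10 of 18 called higher, while the HOX genes outside the set centre on 0.00.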

How the data were processed

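Total RNA was labelled with Cy3 and hybridised to 1-colour arrays, 1 per cow, per the labels' protocols. The deposited scanner files hold processed intensity values from Agilent Feature Extraction 10.5.1.1, background-subtracted per the file headers. A deposited table of log2 values, whose centring is not stated and whose column medians ran from -0.08 to 0.09, served as an alternative. Relative to fertile cow 2, its values matched the scaled scanner values within 0.01 at 100% of probes, and for fertile cow 1 at 17.0%. For each array, the 75th percentile of log2 intensity over non-control probes was subtracted, and outlier spots were left out. Probes well above background on at least 5 of 11 arrays (31877) were fitted with limma 3.58.1 in R 4.3.3 with group as the only term, and adjusted by Benjamini-Hochberg at 0.05. In simulated data with independent noise between arrays and 100 probes changed at each fold, 58% of probes changed 2-fold and 87% of those changed 4-fold were recovered. Of 156 simulated calls, 11 were false. Shared slides and scan days were not simulated, so these shares do not carry over to the real arrays. Equal replicate numbers mark different cows, and their deviations correlated from -0.21 to 0.22, so the numbers do not pair samples. Genes were named through RefSeq (ARS-UCD2.0). Text names every member probe, the 2 list genes of smallest p and the 2 genes of highest r, and members among the 100 most alike. COL3A1 and DCN were added after their values were seen. Some items that this rule takes, and a probe sequence, are not reported here. Members and lists were chosen with earlier results of these data known. The number of arrays limits the precision.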

Additional observations from a re-analysis of the deposited data

How the results depend on the processing

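The count of probes past the threshold was 7090, and it was 17126 with the normexp background correction, 12240 with no filter on dim probes, 3686 when slides and 959 when scan days were random blocks, 4137 without fertile cows 1 and 3, and from 4527 to 7310 when 1 cow was left out. The share of calls that were higher was 66.7%, against 50.9% with quantile normalization, 48.6% with median scaling and 87.4% with normexp, and the median difference of all probes was -0.01, -0.02 and 0.33 under these, against 0.07. Member probes called higher numbered 2, and 5 with normexp, 0 with scan day, 1 without fertile cows 1 and 3, and 1 to 3 when 1 cow was left out. Member probes called lower numbered 2, and 3 with median scaling, 1 with slide, 0 with scan day, 1 without fertile cows 1 and 3, and 2 to 4 when 1 cow was left out.

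Of 412 refits of member probes, 358 kept direction and call, 17 lost the call, 12 gained one and 25 reversed. The cause of the reversals was not tested. MSX1 reversed under quantile normalization (-0.15 by probe 1 and -0.34 by probe 2). MSX1 probe 2 also reversed with median scaling (-0.0098), without fertile cows 1 and 3 (-0.048) or fertile cows 2 and 5 (-0.0078), and ran from -0.0084 to 0.22 when 1 cow was left out. EMX2 probe 3 reversed with slide (0.015) or scan day (0.0059), without fertile cows 1 and 3 (0.0053) or 2 and 5 (0.12), and ran from -0.11 to 0.051 when 1 cow was left out. PAX8 probe 1 reversed with median scaling (-0.038) and without fertile cows 1 and 3 (-0.040), and ran from -0.090 to 0.14 when 1 cow was left out. PAX8 probe 2 reversed with normexp (1.17), as HOXC6 did (0.049). SOX17 ran from -0.18 to 0.46 by probe 1 and from -0.13 to 0.54 by probe 2 when 1 cow was left out.

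With the replicate block, although the numbers mark unrelated cows, 4747 probes passed, MSX2 had a limma adjusted p of 0.107, FOXA2 probe 1 one of 0.0408, and PAX8 probe 1 reversed (-0.015). Signal near background limits PAX8 probe 2, FOXA2 probe 3 and HOXB7.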
